A study of Mus musculus with 7 samples.

Results

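The short unnamed transcribed loci are intervals of mouse gonadal fat RNA that carried no gene name in the deposited table, spanned less than 1000 bp and exceeded 1 FPKM (a read level divided by transcript length and sequencing depth) in at least 1 group. They numbered 3537 of 35534 loci, out of 9743 unnamed loci in all and 5956 short unnamed loci of any level. They were selected on the FPKM values of both groups, so their levels and the differences between the groups are given as a description. Poly(A)-selected RNA was sequenced from gonadal fat of male CD-1 pups on postnatal day 21. The BDE-47 group held 4 pups, whose dams were fed 0.2 mg/kg body weight per day of BDE-47 in corn oil, beginning on gestation day 8 and ending on postpartum day 21. The control group held 3 pups, whose dams were fed the oil alone over the same days. Each pup came from a different litter, with 5 dams dosed per group. BDE-47 (2,2′,4,4′-tetrabromodiphenyl ether) is a brominated flame retardant. For each locus the table holds 1 value per group, which combines the pups, on a log2 scale with 0 FPKM listed at a floor of -10. The spread between pups and the depth of each library are therefore unknown here. No test between the groups could be run, and "higher" and "lower" compare the group values only.

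Cufflinks assembles a transcript wherever aligned reads form a cluster, so its output holds pieces of known genes, copies of genes and stretches outside any annotation beside full transcripts. A processed pseudogene is a copy of a spliced messenger RNA that was written back into the genome, and it resembles the exons of its parent gene. Immunoglobulin variable segments are short exons that B lymphocytes join to make antibodies. FPKM divides by transcript length, so a given number of reads makes a larger FPKM in a shorter locus.

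The sequence of a locus could be read where it lay wholly inside an annotated exon, which held for 542 loci (15.3%) at 466 intervals. The first set shows examples of loci in pseudogene exons beside coding genes elsewhere in the genome. Each pair aligns the locus with a spliced coding stretch of its closest protein-coding gene. Pairs were drawn from alignments without gaps, end to end and within coding sequence, so they do not show how close such loci are in general. Another pair drawn in this way, Gm18234 with Zfp106, differed at 8 of 140 bases and is not printed. Capitals mark bases that differ within the pair. Positions count from 1 at the 5′ end of the locus, with the base of the coding gene before the position and that of the locus after it. The locus in Gm14681 (chrX:66778745-66778818, minus strand, 74 bp) differed from Npm1 by C2T alone. The locus in Eif3s6-ps4 (chr6:19318757-19318838, minus strand, 82 bp) differed from Eif3e by A70G alone. The locus in Gm45246 (chr8:97876335-97876429, plus strand, 95 bp) differed from Hnrnpl by G1A and A15G. The locus in Gm6472 (chrX:152909830-152910071, minus strand, 242 bp) differed from Rps7 by G74T alone. These are the letters of the GRCm38 reference, not of the CD-1 pups.
Gm14681: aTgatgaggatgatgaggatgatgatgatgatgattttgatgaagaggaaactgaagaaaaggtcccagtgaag
Npm1: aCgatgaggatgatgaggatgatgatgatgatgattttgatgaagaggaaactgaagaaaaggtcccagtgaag
Eif3s6-ps4: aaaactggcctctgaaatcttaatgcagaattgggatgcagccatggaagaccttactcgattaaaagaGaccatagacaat
Eif3e: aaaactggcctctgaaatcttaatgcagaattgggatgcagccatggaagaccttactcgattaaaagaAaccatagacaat
Gm45246: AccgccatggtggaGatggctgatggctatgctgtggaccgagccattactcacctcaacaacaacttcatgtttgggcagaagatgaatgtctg
Hnrnpl: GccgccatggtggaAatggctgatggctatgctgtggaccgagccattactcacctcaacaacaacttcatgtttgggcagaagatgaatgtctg
Gm6472: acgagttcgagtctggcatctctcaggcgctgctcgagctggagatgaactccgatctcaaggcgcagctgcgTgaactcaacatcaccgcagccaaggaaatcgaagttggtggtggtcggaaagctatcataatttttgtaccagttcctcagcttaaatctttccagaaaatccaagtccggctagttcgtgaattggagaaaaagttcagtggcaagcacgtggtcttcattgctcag
Rps7: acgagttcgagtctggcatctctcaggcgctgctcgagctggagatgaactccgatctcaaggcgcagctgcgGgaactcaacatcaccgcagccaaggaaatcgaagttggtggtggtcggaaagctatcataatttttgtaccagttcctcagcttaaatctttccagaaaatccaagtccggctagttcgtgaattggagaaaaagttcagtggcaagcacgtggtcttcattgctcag

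The second set shows loci in immunoglobulin heavy chain variable segments, in lower case throughout since no base is singled out. The locus in Ighv1-12 (chr12:114616017-114616124, minus strand, 108 bp) had the highest control value of the immunoglobulin loci, and that in Ighv1-81 (chr12:115920288-115920445, minus strand, 158 bp) the highest control value of those listed at 0 in the BDE-47 group.
Ighv1-12: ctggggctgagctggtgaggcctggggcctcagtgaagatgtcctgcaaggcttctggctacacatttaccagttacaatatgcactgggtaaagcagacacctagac
Ighv1-81: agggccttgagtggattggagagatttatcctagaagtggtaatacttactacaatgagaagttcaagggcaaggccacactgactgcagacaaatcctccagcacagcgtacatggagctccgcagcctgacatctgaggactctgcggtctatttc

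Short unnamed loci were mostly lower in BDE-47 fat than in control fat. Their median was 1.21 FPKM in BDE-47 fat (quartiles 0.518 and 3.27) and 2.53 FPKM in control fat (quartiles 1.32 and 9.19). In BDE-47 fat 514 of them were listed at 0 (14.5%, against 3.02% of all 19676 loci above 1 FPKM), and in control fat 42 (1.19%, against 0.422% of all). Of the 2981 loci above 0 in both groups, 278 were at least 2-fold higher in BDE-47 fat (9.33%, against 2.93% of all 18999 such loci) and 1161 at least 2-fold lower (38.9%, against 10.1% of all). Nothing is read from these shares about the exposure, since the loci were chosen by the same values. The log2 difference (BDE-47 minus control) had a median of -0.62 with quartiles of -1.54 and 0.17.

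Long unnamed loci and named loci in the same table were centred near 0. The 1877 unnamed loci of 1000 bp or more above 1 FPKM had a median log2 difference of 0.03, with 23 listed at 0 in BDE-47 fat and 8 in control fat. Of those above 0 in both groups, 164 were at least 2-fold higher (8.88%) and 205 at least 2-fold lower (11.1%). The 14262 named loci above 1 FPKM had a median of 0.01, with 57 and 33 listed at 0 in BDE-47 and control fat. Only 72 named loci spanned under 1000 bp, and their median was -0.25. Of these short named loci, 10 were listed at 0 in BDE-47 fat (13.9%) and 5 in control fat (6.94%). The 2419 short unnamed loci at or under 1 FPKM, which the rule left out, had a median of -0.09, with 87 listed at 0 in BDE-47 fat and 36 in control fat. These sets differ in level and length, and how far that bears on their medians was not tested.

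**Figure D1:**
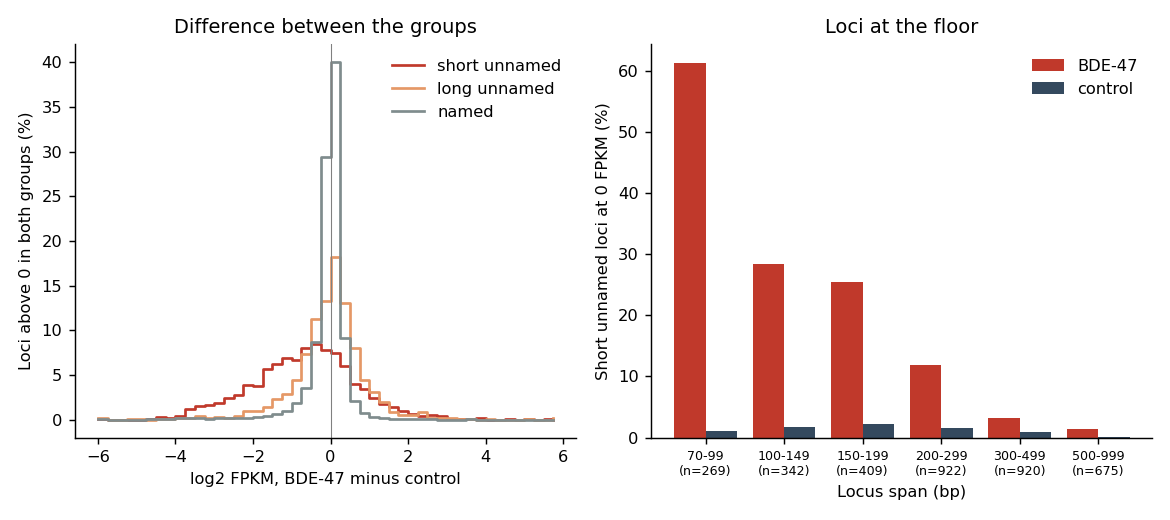
The left panel plots the share of loci (%, among those above 0 FPKM in both groups) against the log2 FPKM difference, BDE-47 minus control, for short unnamed, long unnamed and named loci above 1 FPKM, with values beyond 6 drawn in the end bins. The right panel plots the share of short unnamed loci listed at 0 FPKM by span, with BDE-47 bars left of control bars: the short unnamed curve is wide and centred at -0.62, and the BDE-47 bars decline from 61.3% to 1.33% as span grows.

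The share of loci at 0 in BDE-47 fat was lower at each greater length, while that in control fat stayed low at every length. Of 269 loci of 70 to 99 bp, 165 were listed at 0 in BDE-47 fat (61.3%) and 3 in control fat (1.12%), with a median of 0 FPKM in BDE-47 fat and 98.4 FPKM in control fat. Of 342 loci of 100 to 149 bp, 97 were at 0 in BDE-47 fat and 6 in control fat. The share at 0 was 25.4% in BDE-47 fat and 2.2% in control fat at 150 to 199 bp. It was 11.9% and 1.52% in BDE-47 and control fat at 200 to 299 bp, and 3.15% and 0.978% at 300 to 499 bp. Among 675 loci of 500 bp or more, 9 were at 0 in BDE-47 fat (1.33%) and 1 in control fat. The median log2 difference of loci above 0 in both groups was -1.08 at 70 to 99 bp, -1.23 at 150 to 199 bp, -0.41 at 300 to 499 bp and -0.27 at 500 bp or more. All 6 length classes had negative medians.

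**Figure D2:**
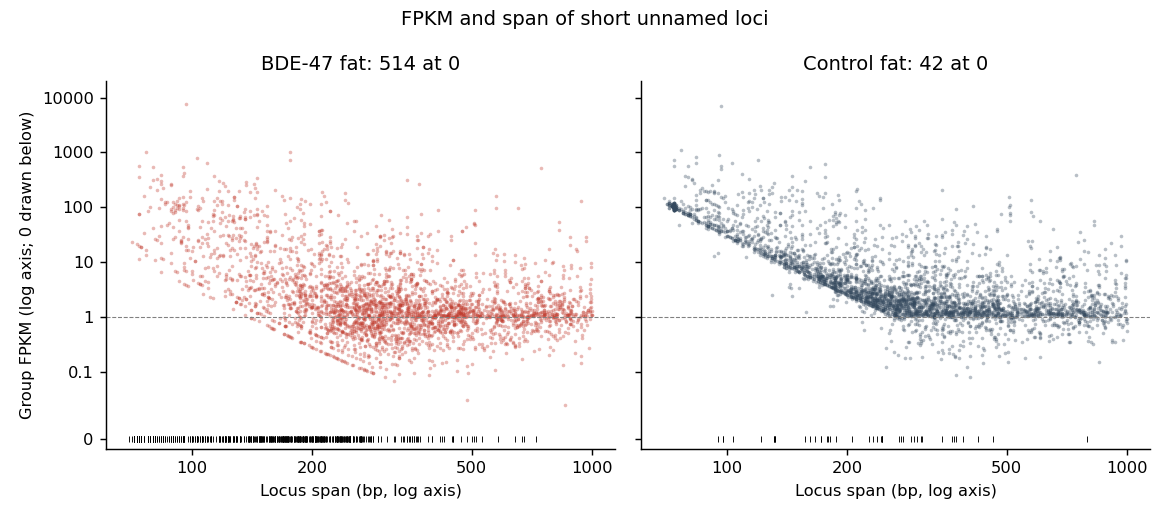
Each point is a short unnamed locus, with its span (bp, log axis) against its group FPKM (log axis), in BDE-47 fat on the left and control fat on the right; ticks at the bottom are loci at 0, and the dashed line is the limit of 1 FPKM. Control values of the shortest loci crowd along a lower edge near 100 FPKM (median 98.4 at 70 to 99 bp), while 165 of these 269 loci sit at 0 in BDE-47 fat.

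Control values of the shortest loci took a small number of levels. The reads were single-end with 75 cycles, and 74 bp was the most frequent span, with 66 loci. Of these, 60 were listed at 0 in BDE-47 fat, and their control values were 88.6 FPKM in 9 loci, 98.4 FPKM in 33, 108 FPKM in 11, 118 FPKM in 6 and 145 FPKM in 1. The first 4 of these levels stand in the ratio 9 to 10 to 11 to 12 within 0.011 log2, with a step of 9.84 FPKM. At 73 bp, 13 of 14 loci were at 0 in BDE-47 fat, and their control values stood at 104 FPKM in 9 loci and 115 FPKM in 4, in the ratio 10 to 11. At 75 bp, 10 of 12 were at 0 in BDE-47 fat, with control values of 93.1, 103 and 112 FPKM in the ratio 10 to 11 to 12. At 72 bp all 9 were at 0 in BDE-47 fat. Only levels held by at least 2 loci were compared, so the level of 145 FPKM was left out. The ratios use the smallest whole numbers that matched, and finer steps would match too. On these ratios a control value near 100 FPKM at this length was of the order of 10 steps of the scale, or more if the steps are finer. Of all 514 loci at 0 in BDE-47 fat, 174 shared both span and control value with another. Of the 42 at 0 in control fat, 0 shared span and BDE-47 value. The 2 sets differ in size and length, with 165 of the 514 and 3 of the 42 under 100 bp, so these counts are not like for like. The smallest count behind a value is not stated in the table, and a locus listed at 0 in 1 group has no fold.

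Loci at the floor in a group were kept only where the other group exceeded 1 FPKM, so values above that limit there were set by the rule. A given number of reads makes a larger FPKM in a shorter locus. The largest values below, in short loci, are therefore not read as high expression. The 514 at 0 in BDE-47 fat had control values of 1.01 to 148 FPKM (median 10.8) and a median span of 148 bp. The 42 at 0 in control fat had BDE-47 values of 1.05 to 549 FPKM (median 4.6) and a median span of 234 bp. The highest control value among the first belonged to XLOC_005975 (chromosome 11, 101484552 to 101484621), a 70 bp locus outside any annotated gene, at 0 FPKM in BDE-47 fat and 148.1 FPKM in control fat. Its nearest named locus is the DNA repair gene Brca1, 4142 bp away, at 0.2932 FPKM in BDE-47 fat and 0.4796 FPKM in control fat. Next came XLOC_007892, 39892 bp from Mylip, whose product marks the LDL receptor for degradation, at 0 FPKM in BDE-47 fat and 145 FPKM in control fat. XLOC_005625, 2246 bp from Fam58b, was at 0 and 132.5 FPKM in BDE-47 and control fat, and XLOC_000524 at 0 and 121.1 FPKM.

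Among loci at 0 in control fat, the highest was a piece of the pseudogene Gm45246, whose sequence is printed above. XLOC_031628 was at 548.7 FPKM in BDE-47 fat and 0 FPKM in control fat. A second row at the same interval, XLOC_030805, was at 153.3 FPKM in BDE-47 fat and 14.93 FPKM in control fat. Both rows were higher in BDE-47 fat, while Hnrnpl, the matching gene for an RNA-binding protein, was at 94.35 and 87.43 FPKM in BDE-47 and control fat. XLOC_032650 (chromosome 9) was at 51.98 FPKM in BDE-47 fat and XLOC_022184 (chromosome 4) at 44.63 FPKM, both at 0 in control fat. The interval of XLOC_032650 is listed in 2 rows, and the other row is not given here. XLOC_025723 lay in the pseudogene Spr-ps1, at 31.12 FPKM in BDE-47 fat and 0 FPKM in control fat. The second row at its interval, XLOC_026671, was at 24.76 and 0 FPKM in BDE-47 and control fat. Spr itself, which encodes sepiapterin reductase of tetrahydrobiopterin synthesis, lies 18037 bp away and was at 33.82 and 38.85 FPKM in BDE-47 and control fat.

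The loci with the highest FPKM spanned 77 to 176 bp. XLOC_014556 on chromosome 18 (23719904 to 23720000, 97 bp, outside any gene) had 7486 FPKM in BDE-47 fat and 7033 FPKM in control fat, the maximum of each group. XLOC_009352 in the pseudogene Gm8894 had 1003 FPKM in BDE-47 fat and 1105 FPKM in control fat. XLOC_015110 on chromosome 18 (41731854 to 41731956) had 781.4 and 648.1 FPKM in BDE-47 and control fat. XLOC_024240 on chromosome 5 (12155112 to 12155207) had 430.5 FPKM in BDE-47 fat and 897.6 FPKM in control fat, a log2 difference of -1.06. An interval of 176 bp on chromosome 11 (109011790 to 109011965) was listed in 2 rows, XLOC_006089 with 1017 and 357.1 FPKM and XLOC_004792 with 734.2 and 621.7 FPKM in BDE-47 and control fat. It lies 61004 bp from Axin2, a feedback inhibitor of Wnt signalling, which was at 17.03 and 6.964 FPKM in BDE-47 and control fat. These 6 rows carry the highest means, and 4 of the 6 differed by less than 2-fold.

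The largest differences with 1 FPKM added went both ways. XLOC_035434 on chromosome Y, 40288 bp from Erdr1, had 129.8 FPKM in BDE-47 fat and 8.877 FPKM in control fat. XLOC_031071 in the pseudogene Gm21399 had 16.11 FPKM in BDE-47 fat and 0.356 FPKM in control fat. Its interval and that of the Gm11814 piece below are each listed in 2 rows, and the other row is not given here. Pseudogene pieces also made up 3 of the other 4 largest positive differences, namely the Gm45246 row above, Gm2791 (93.7 FPKM in BDE-47 fat and 12.91 FPKM in control fat) and Gm11814 (222.9 and 35.51 FPKM in BDE-47 and control fat). The sixth, XLOC_002025 in the long non-coding RNA Gm32200, had 17.39 FPKM in BDE-47 fat and 2.445 FPKM in control fat.

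Of the 6 largest negative differences, 4 lay outside any annotated gene. XLOC_012358 on chromosome 16 had 6.727 FPKM in BDE-47 fat and 137.2 FPKM in control fat. XLOC_003604, 316 bp from Xrcc6bp1, had 4.532 FPKM in BDE-47 fat and 88.65 FPKM in control fat, while Xrcc6bp1 had 3.758 and 3.34 FPKM. XLOC_012326 lay in an intron of Med15, which encodes a Mediator subunit, and had 3.204 FPKM in BDE-47 fat and 70.52 FPKM in control fat, against 20.39 and 22.63 FPKM for Med15. XLOC_034484 on chromosome X had 2.042 FPKM in BDE-47 fat and 40.79 FPKM in control fat. Its interval is listed in 2 rows, and the other row is not given here. XLOC_008440, in a cluster of replication-dependent histone genes on chromosome 13, had 4.028 FPKM in BDE-47 fat and 65.34 FPKM in control fat. XLOC_004856 overlapped coding sequence of Myo15b and had 0.9461 FPKM in BDE-47 fat and 19.84 FPKM in control fat. At Med15, Xrcc6bp1 and Armcx3, the named locus nearest XLOC_034484, the gene differed by less than 2-fold.

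The locus listing itself bears on these values. The 3537 rows covered 3003 intervals, 522 of which appeared in 2 rows and 6 in 3 rows. The table gives no strand, so whether such rows are opposite strands cannot be told apart from other causes of a repeated entry. In 490 pairs above 0 in both groups, the 2 log2 differences of a pair were a median of 0.53 apart, and 129 pairs had opposite signs. These counts cover rows above 1 FPKM only. A further 321 rows at or under 1 FPKM share an interval with 1 of them. A row counted as alone here may therefore have another row below the limit. The 1062 rows at repeated intervals had a median log2 difference of -0.27, with 28 at 0 in BDE-47 fat and 14 in control fat. The 2475 rows alone above the limit had a median of -0.85, with 486 at 0 in BDE-47 fat and 28 in control fat. The limit of 1 FPKM thus bears on this contrast.

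Most short unnamed loci lay outside annotated exons. By GENCODE release 21 of the mouse annotation, 1986 lay outside any gene (56.1%, against 18.7% of long unnamed loci) and 537 in introns alone (15.2%, against 4.85%). Their median log2 differences were -0.74 and -0.73. Untranslated or other exons of protein-coding genes held 305 loci with a median of -0.67, and long non-coding RNA exons 223 with -0.55. Only 67 overlapped coding sequence (1.89%, against 36.7% of long unnamed loci), with a median of -0.33. Long unnamed loci had a median span of 8224 bp, against 281 bp for short ones, and 678 of them overlapped a named locus. The shares of the 2 sets are therefore not like for like. The 321 loci in pseudogene exons had the median nearest 0 (-0.07) and the highest median level, 7.16 FPKM in BDE-47 fat and 7.94 FPKM in control fat. Among chromosomes other than Y, the median ran from -0.85 to -0.32. The 48 loci of chromosome Y had a median of 0.53. Of them, 16 were at least 2-fold higher (33.3%, against 2.93% of all loci) and 5 at least 2-fold lower (10.4%, against 10.1%). On this chromosome 24 intervals had the same nearest named locus, Gm20826, so the rows may not be independent.

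None of the short unnamed loci overlapped a named locus. Among 5956 short unnamed loci of any level the count was also 0, whereas 36.1% of long unnamed loci overlapped one. Of all unnamed loci, 967 were listed with the interval of a named locus, and 0 of these spanned under 1000 bp. The contrast in overlap therefore depends on how intervals were listed. For short unnamed loci above 1 FPKM, the gap to the nearest named locus was 7 bp at the least and 1716403 bp at the most. Its median was 5739 bp, with quartiles of 1397 and 31576 bp. Within 1 kb lay 763 loci (21.6%), within 5 kb 1673 (47.3%) and beyond 50 kb 640 (18.1%). Of long unnamed loci, 66.5% lay within 5 kb or overlapped. Within 5 kb, 864 loci lay downstream of the nearest gene and 683 upstream, with the direction unknown for 126. The most crowded neighbourhoods were those of Gm20826 on chromosome Y, nearest to 24 intervals, and Plekho2, nearest to 13.

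**Figure D3:**
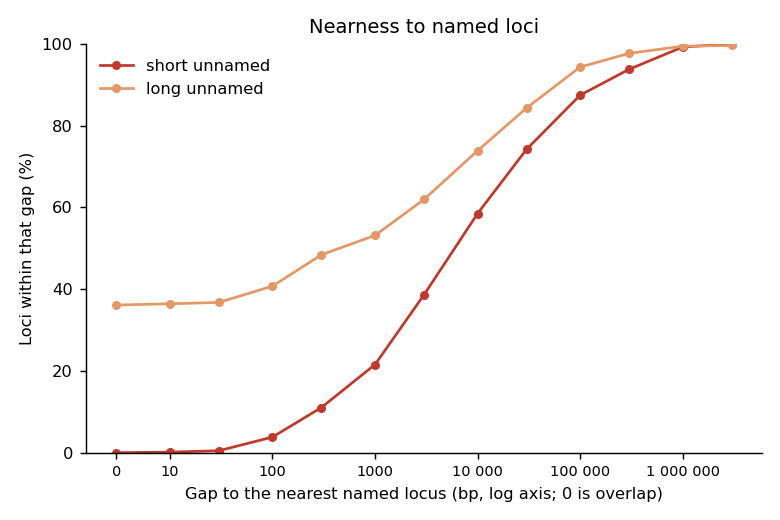
The lines give the share of loci (%) that lie within a given gap (bp, log axis, with 0 for overlap) of the nearest named locus, for short and long unnamed loci above 1 FPKM. The short unnamed line starts at 0 and passes 21.6% at 1000 bp, below the long unnamed line, which starts at 36.1%. The starting points depend on how intervals were listed.

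The median difference was negative at every distance from a named locus. The median log2 difference was -0.72 within 5 kb downstream of a gene and -0.68 within 5 kb upstream. By distance it was -0.59 within 1 kb, -0.80 from 1 to 5 kb, -0.62 from 5 to 50 kb and -0.31 beyond 50 kb, where 139 of 640 loci were at 0 in BDE-47 fat and 13 in control fat. Across 1443 loci within 5 kb of a named locus and above 0 in both groups, the correlation of the locus's log2 difference with that of its neighbour was 0.14. These points share the group libraries, and several share a neighbour.

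Loci beside named genes that were lower in BDE-47 fat were themselves at least 2-fold lower or listed at 0 there in most cases. Of 72 loci within 5 kb of a named locus at least 2-fold lower, 28 were at 0 in BDE-47 fat (38.9%) and 0 in control fat, and 30 of the other 44 were at least 2-fold lower. Of 1528 loci beside a named locus differing by less than 2-fold, 146 were at 0 in BDE-47 fat (9.55%) and 6 in control fat, and 549 were at least 2-fold lower. Of 26 beside a named locus at least 2-fold higher, 3 were at 0 in BDE-47 fat (11.5%), and of the other 23, 9 were at least 2-fold lower and 4 at least 2-fold higher. Above 0 in both groups, the medians were -1.48 for 44 loci beside lower genes, -0.67 for 1376 and -0.35 for 23 beside higher genes. The 72, 1528 and 26 loci lay beside 51, 1133 and 22 different named loci. Loci whose neighbour was at 0 in either group were left out. Neighbours were classed with no level limit, so some were near the floor. In BDE-47 and control fat, Scrt1 was at 0.009552 and 0.004304 FPKM and Casp14 at 0.007041 and 0.01629 FPKM.

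The following neighbours, themselves at least 2-fold lower in BDE-47 fat, each had at least 2 loci at 0 there within 5 kb. They were picked after their values were seen. Neighbours that were higher or differed by less than 2-fold were not searched for such groups. Cyp2b9, a liver cytochrome P450, was at 0.03303 FPKM in BDE-47 fat and 0.6373 FPKM in control fat. Its 3 loci lay 559 to 2239 bp downstream, at 0 FPKM in BDE-47 fat and 2.732, 4.141 and 37.27 FPKM in control fat. Mbl1, a mannose-binding lectin secreted by the liver, was at 0.1638 FPKM in BDE-47 fat and 1.945 FPKM in control fat, and had 2 such loci, at 3.01 and 4.925 FPKM in control fat. Onecut1, a transcription factor gene of liver and pancreas, was at 0.009227 and 0.4147 FPKM in BDE-47 and control fat, and its 2 rows at 0 were at 1.79 and 4.228 FPKM in control fat. The first of these intervals has a second row, at 0.356 FPKM in BDE-47 fat and 1.173 FPKM in control fat. Those near Slco1a1, an organic anion transporter, were at 3.458 and 9.19 FPKM, and those near Urad, an enzyme of uric acid breakdown, at 2.412 and 8.225 FPKM, both in control fat. The uncharacterised 1810008I18Rik also had 2, at 3.681 and 21.56 FPKM in control fat, and another locus at 0.2643 FPKM in BDE-47 fat and 1.347 FPKM in control fat. All of these loci lay downstream of their neighbour and outside any annotated gene.

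Markers of some other cell types differed between the groups. The adipocyte list of 8 genes was present in both, with a summed level of 49305 FPKM in BDE-47 fat and 48549 FPKM in control fat, and none differed 2-fold. All 10 hepatocyte markers were at least 2-fold lower in BDE-47 fat, with a summed level of 54.86 FPKM in BDE-47 fat and 648.1 FPKM in control fat. All 7 epididymis markers were lower, at 0.276 and 42.53 FPKM in sum in BDE-47 and control fat. Defb38, Defb28, Lcn8 and Spint4 of that list were at 0 in BDE-47 fat, and at 10.85, 9.781, 0.0364 and 1.007 FPKM in control fat. Crisp1, listed as 1 locus with Crisp3, was at 0.1708 and 18.64 FPKM in BDE-47 and control fat. Lcn8 and Rnase10 (0.04481 and 0.1416 FPKM) were near the floor in both groups. Skeletal muscle markers summed to 29.08 FPKM in BDE-47 fat and 121 FPKM in control fat, nearly all of it Acta1 (28.64 and 120.3 FPKM), while Ckm and Tnnt3 were lower by less than 2-fold and Myh4 was higher. Both smooth muscle markers were at least 2-fold higher in BDE-47 fat, with sums of 49.8 and 16.48 FPKM in BDE-47 and control fat. No blood, macrophage or endothelium marker differed 2-fold. Their sums were 187.9, 115.7 and 153.5 FPKM in BDE-47 fat, against 209.2, 190.2 and 142.2 FPKM in control fat. The part of these cell types in the values of the unnamed loci was not tested, and in bulk tissue fewer cells of a type and less RNA per cell cannot be told apart. Of the marker genes of these lists, Adipoq alone was the nearest named locus of short unnamed loci within 5 kb, both rows at 1 interval 195 bp downstream. XLOC_011850 had 1.682 FPKM in BDE-47 fat and 3.117 FPKM in control fat, and XLOC_012405 had 1.705 and 1.828 FPKM.

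Most loci wholly inside pseudogene exons resembled a coding gene in sequence, which the name pseudogene already implies. Their group values were centred near 0 difference. The coding matches described here were sought after the levels were seen. Of 116 loci wholly inside a pseudogene exon, 109 matched a protein-coding transcript at 90% identity or more over at least 80% of their length, 105 of them at 95% or more of their full length. The median identity was 98.1%, and 102 matches fell in coding sequence. In long non-coding RNA exons 7 of 112 loci had such a match. In 100 pairs above 0 in both groups, the loci had a median log2 difference of -0.06 (quartiles -0.62 and 0.31), with 8 at least 2-fold higher and 16 at least 2-fold lower. Their matching genes had a median of 0.01 (quartiles -0.10 and 0.15), with 0 past 2-fold either way. The 116 loci lay at 78 intervals, and the 100 pairs covered 56 different matching genes, so some genes were counted more than once. Reads that fit both copies cannot be told apart, and how the mapping shared them is not stated, so each of these levels is uncertain.

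The levels of the printed pairs differed between the locus and its matching gene in either direction. The locus in Gm14681 was at 357.1 FPKM in BDE-47 fat and 576 FPKM in control fat, and Npm1, the nucleolar protein nucleophosmin, at 160.9 and 173.6 FPKM. The locus in Eif3s6-ps4 was at 333.1 FPKM in BDE-47 fat and 330.8 FPKM in control fat, and Eif3e, a translation initiation factor subunit, at 92.41 and 89.26 FPKM. The 2 rows in Gm6472 were at 184.8 and 138.1 FPKM in BDE-47 fat, against 148.1 and 136.2 FPKM in control fat. Rps7, a small ribosomal subunit protein, was at 324 and 347.3 FPKM in BDE-47 and control fat. In Gm5835, matching the large ribosomal subunit gene Rpl4, 1 row was at 270.6 FPKM in BDE-47 fat and 54.95 FPKM in control fat. The other row at the same interval was at 7.674 and 5.389 FPKM in BDE-47 and control fat, under 2-fold, and Rpl4 was at 430.5 and 481 FPKM. Loci stood above their matching gene in 27 of the 100 pairs in BDE-47 fat and 29 in control fat. These set short pieces against whole genes, and a given number of reads makes a larger FPKM in a shorter locus. The 2 levels of a pair are therefore not like for like.

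**Figure D4:**
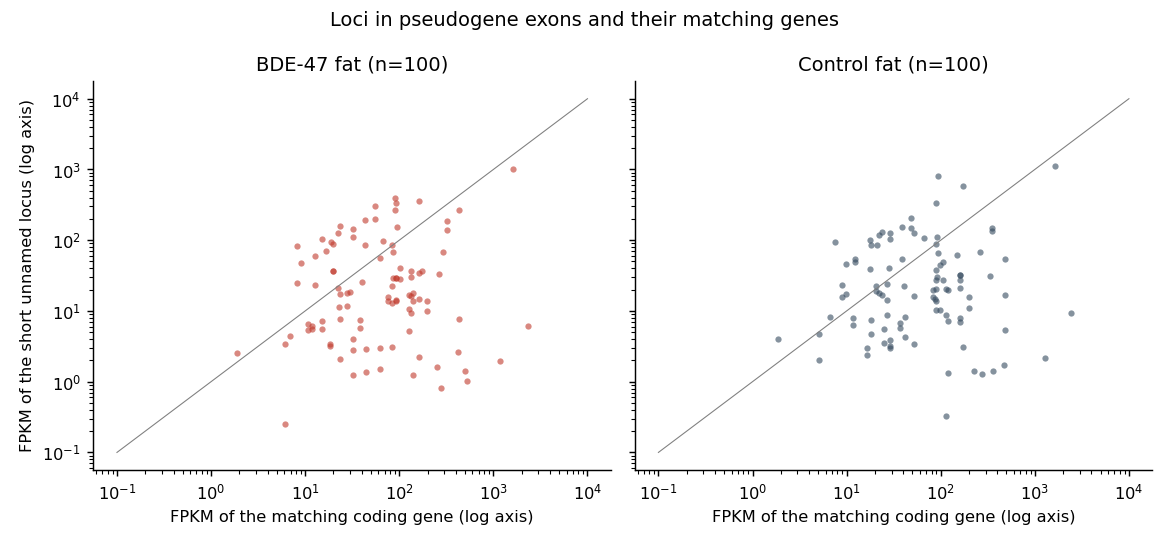
Each point is 1 of 100 short unnamed loci in pseudogene exons, with its FPKM against that of its matching coding gene, both on log axes, in BDE-47 fat on the left and control fat on the right; the line marks equal values. 27 points lie above the line in BDE-47 fat and 29 in control fat.

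Loci in immunoglobulin segments, picked after the values were seen, were mostly lower in BDE-47 fat, as were the short unnamed loci as a whole. They filled 38 rows in 28 segments, 24 of which were lower in BDE-47 fat in every row and 4 higher. Their medians were 0.693 FPKM in BDE-47 fat and 1.64 FPKM in control fat, near the limit of 1 FPKM. A row under 1 FPKM in 1 group entered through the other group alone. The direction of such rows was therefore set by the rule. Of 34 rows above 0 in both groups, 26 were lower, against 2083 of the 2981 short unnamed loci. Of the 34, 18 were at least 2-fold lower (52.9%, against 38.9% of short unnamed loci) and 7 at least 2-fold higher (20.6%, against 9.33%), and the median log2 difference was -1.48. Ighv1-12 was at 7.73 FPKM in BDE-47 fat and 25.5 FPKM in control fat, and Ighv1-81 at 0 and 9.92 FPKM. Higher in BDE-47 fat were Igkv16-104 (2.91 and 3.41 FPKM in its 2 rows, against 0.312 and 0.504 FPKM in control fat), Igkv5-39 (6.45 and 7.26 FPKM, against 1.67 and 1.23 FPKM), Ighv1-14 and Igkv14-126. The 4 rows in the T cell receptor constant genes Trbc1 and Trbc2 had a median of -0.22, with 0 past 2-fold. Of 6 B cell marker genes, also picked after the values were seen, all were lower in BDE-47 fat, 2 at least 2-fold, with a sum of 10.39 FPKM in BDE-47 fat and 16.89 FPKM in control fat. Of 6 T cell markers 3 were lower, with sums of 4.609 and 3.841 FPKM. The part of these cells in the values was not tested. Variable segments resemble one another, so their reads may be shared among copies.

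**Figure D5:**
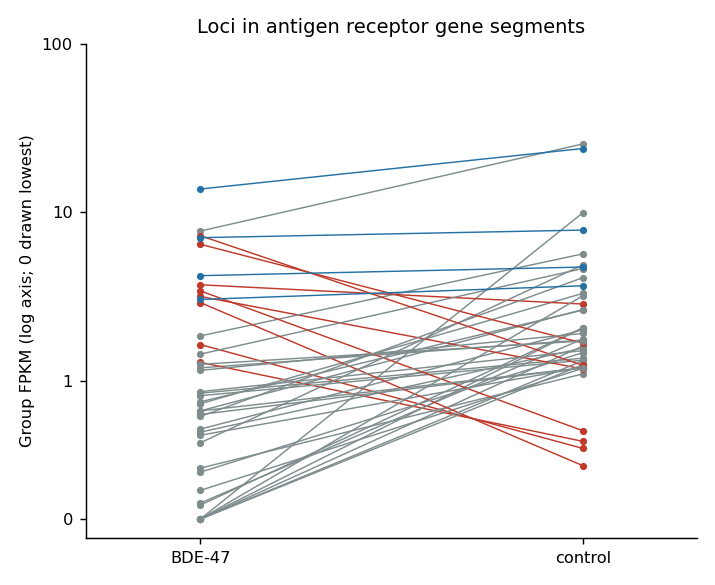
Lines join the BDE-47 (left) and control (right) FPKM (log axis, 0 drawn lowest) of each of 42 rows in antigen receptor segments, with grey for immunoglobulin rows lower in BDE-47 fat, red for immunoglobulin rows higher there and blue for T cell receptor rows. 4 rows sit at 0 in BDE-47 fat and none in control fat.

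The limits of the rule cut through a continuous range. The longest loci inside it spanned 998, 998 and 996 bp, and the next unnamed loci outside spanned 1000, 1000 and 1003 bp. At the level limit, 16 loci had a higher value of 1.007 FPKM, just inside, and 16 short unnamed loci had 1 FPKM, just outside.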

How the data were processed

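RNA of gonadal fat from 4 BDE-47 and 3 control pups was sequenced single-end. After trimming in BaseSpace, the authors aligned reads to mm10 (TopHat2), built transcripts (Cufflinks 2.1.1) and estimated levels (Cuffdiff 2.1.1), as the submitters' processing notes state. The annotation, strand setting and library scaling behind the table: not given in the sources used here. By the methods, the study left out 1 control library with fewer reads. The authors deposited 1 table of 35534 loci with the log2 FPKM of each group; 1 line was empty. Its columns of the authors' log2 ratio, deposited q-value and significance call were not used, and 0 columns of single pups were left unused.

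Log2 differences are BDE-47 minus control, over loci above 0 FPKM in both groups, with no pseudocount; 2-fold counts as different. Starts in the table count from 0 (6803 of 24112 single-name loci begin at the 0-based GENCODE start, 637 at the 1-based) and are printed from 1. Genes and sequences are from GENCODE M21 on GRCm38, the assembly of mm10; pseudogene matches used BLAST 2.17.0, with end bases the aligner left out counted as unmatched. Named loci were the 6 highest, the 6 largest differences each way with 1 FPKM added, the 4 highest at 0 in each group, the 4 highest beyond 50 kb and the nearest to each limit; others were picked after their values were seen. Members and lists were chosen with earlier results of these data known. Counting and gaps were tested on simulated data. Alternatives changed the pseudocount, centring, FPKM, span and fold limits, the named loci used and the joining of close loci. Python 3.11.15, pandas 2.3.3, numpy 2.4.6 and matplotlib 3.10.9 were used.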

Additional observations from a re-analysis of the deposited data

How the results depend on the processing

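Of 43 alternatives, 24 left the count or distance within 1.5 times, or the median within 0.1 log2, of the value reported. The other 19 moved it. Counts and distances have no direction to reverse, and the median log2 difference stayed negative in each of its alternatives. The 278 loci at least 2-fold higher became 156 with 1 FPKM added to all loci, 103 above 1 FPKM in both groups, 75 above 5 FPKM in at least 1 group, 610 with no FPKM filter and 136 at 3-fold. The 1161 at least 2-fold lower became 451 above 1 FPKM in both groups, 394 above 5 FPKM and 712 at 3-fold. The median log2 difference of -0.62 became -0.83 with 0.1 FPKM added, -0.34 above 1 FPKM in both groups, -0.35 with no FPKM filter and -0.77 under 500 bp. With a limit of 5 FPKM, 333 loci were at 0 in BDE-47 fat and 19 in control fat, and with no filter 78 were at 0 in control fat. Stricter limits keep fewer of the loci: 1739 were above 1 FPKM in both groups and 1303 above 5 FPKM. Within 5 kb of a named locus the count of 1673 became 2974 with no filter and 763 at 1 kb. With GENCODE genes in place of named loci it became 2796, and the median gap 317 bp. No paired analysis was possible because the table holds 1 combined value per group and no replicate numbers. No pup could be left out for the same reason. Library depth is not in the table, so no interval can be given, and values of the shortest loci may rest on few steps of the scale.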
